A study of Mus musculus with 11 samples.

Results

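The comparison described here is the difference in response to an ATR inhibitor between mouse melanoma clones labelled as UNG knockouts and their control line. For each gene, the change under the inhibitor in the knockout clones was set against the change in the control, so a negative value means that the gene rose less, or fell more, in the clones. All 11 of 11 libraries entered, and 11323 of the 14528 listed genes were tested, namely those with a mean of at least 0.5 FPKM (fragments relative to the length of the gene and the depth of the library) over all libraries.

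B16F10 is a mouse melanoma line, and the 6 groups were 3 of its derivatives under 2 treatments. The knockout clones ΔUNG and ΔUNG_2 and the Cas9 control line each received 5 µM of the ATR inhibitor AZD6738 (ATRi) or DMSO for 48 h. ΔUNG ATRi had 2 libraries, ΔUNG_2 ATRi 1, Cas9 control ATRi 2, ΔUNG DMSO 2, ΔUNG_2 DMSO 2 and Cas9 control DMSO 2. Each knockout line is a single clone and there is 1 control line, so what belongs to the loss of UNG and what belongs to a clone or to the control line cannot be told apart. The titles call the libraries biological replicates, but nothing in the labels says whether they came from separate passages. The p-values therefore cover only the spread between libraries, and how much of it is technical is not known. For the group with a single library, ΔUNG_2 ATRi, the same spread as in the other groups was assumed.

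UNG, uracil-DNA glycosylase, cuts uracil out of DNA and so starts base excision repair. ATR is the kinase that restrains origin firing and mitotic entry when replication forks stall, and its inhibition leaves cells to replicate and divide with damaged DNA. DNA that reaches the cytosol can set off interferon production, and interferon receptors then signal through the JAK-STAT pathway to switch on interferon-stimulated genes, whose promoters often carry an interferon-response element with the letters GAAA in direct repeat. DNA damage also acts through p53, which switches on cell cycle inhibitors and death genes.

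The libraries held 45692790 to 74973328 clean reads and 17014697 to 28464757 fragments behind the FPKM values. The deepest 2 were the control ATRi libraries, so depth moved with that group. With all libraries thinned to 17014697 fragments, a setting chosen after seeing the data, 16 genes passed the threshold and held all 9 described below. Ung, on chromosome 5, had 1.27 and 0.675 FPKM in ΔUNG ATRi and 1.74 in ΔUNG_2 ATRi, against 1.39 and 0.774 in ΔUNG and 2.01 and 1.78 in ΔUNG_2 under DMSO. In the control, Ung had 2.56 and 2.999 FPKM under ATRi and 2.86 and 2.48 under DMSO. All clone libraries were below all control libraries, but Ung RNA was present in all of them, and at 1.74 to 2.01 FPKM in ΔUNG_2, so these levels do not by themselves show the loss of UNG. The ATRi response of Ung differed by -0.15 ± 0.29 (SE) on the log2 scale, with a limma adjusted p of 0.882. Of 7 melanocyte markers, 7 were listed, with summed levels of 7600 to 9610 FPKM in the clones and 7220 to 8030 in the control. T cell markers were not listed (0 of 5), and leukocyte markers (2 of 6 listed) summed to 2.66 to 12.3 FPKM in the clones and 4.49 to 12.6 in the control.

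Across all genes the clones and the control line answered ATRi in a like manner, and few genes passed the test of the difference. Responses were called for 5581 genes in the clones, or 49.3% of those tested (2690 or 23.8% higher and 2891 or 25.5% lower under ATRi), and for 3805 or 33.6% in the control (1900 or 16.8% higher and 1905 or 16.8% lower). The clones' value is a mean over 2 lines and has a smaller SE than the control's: taken alone, ΔUNG had 4059 called responses (35.8%) and ΔUNG_2 4005 (35.4%). Of 3235 genes called in both, 3222 moved in the same direction and 13 in opposite directions. Across genes, which are not independent replicates, the responses correlated with a Pearson r of 0.808 and a Spearman rho of 0.793, and 81.5% of tested genes had the same sign.

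**Figure D1:**
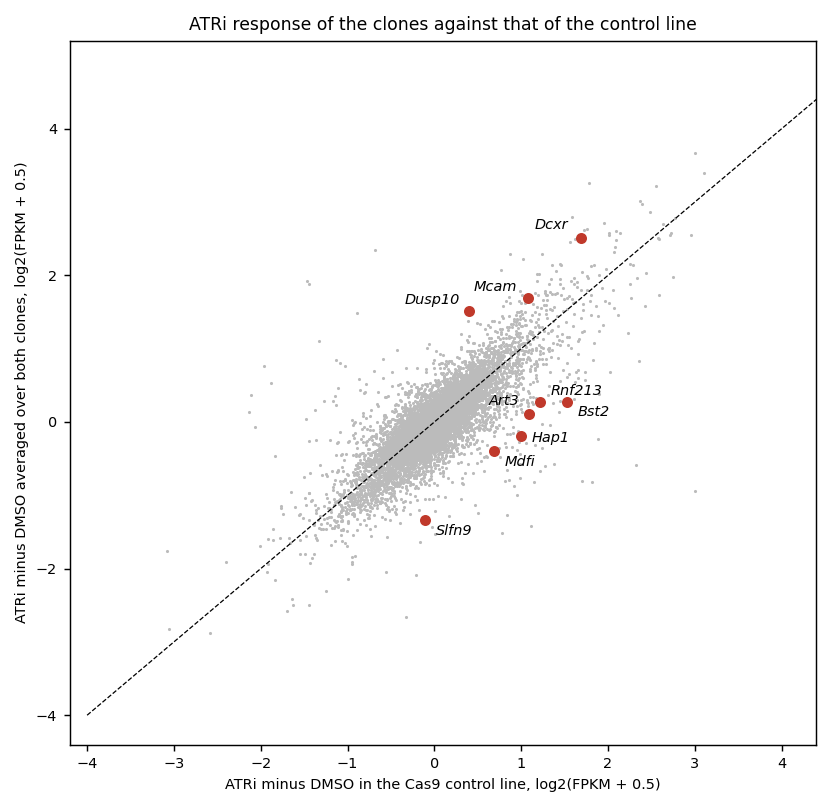
Each point is 1 of 11323 genes, with its ATRi response (ATRi minus DMSO, log2(FPKM + 0.5)) in the Cas9 control line on the x axis and its response averaged over both clones on the y axis. Red points are the 9 genes whose responses differed past the threshold, and the dashed line marks equal responses. Most genes lie along the dashed line, while Slfn9 lies well below it (-1.34 in the clones and -0.10 in the control) and Dusp10 well above it (1.51 in the clones and 0.40 in the control).

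The responses differed for 9 genes, or 0.0795% of those tested, by limma on log2(FPKM + 0.5) with a Benjamini-Hochberg adjusted p under 0.05. In 6 of these the clones' response was the lower (0.053% of genes tested): Bst2, Rnf213, Slfn9, Hap1, Mdfi and Art3. In 3 it was the higher (0.0265%): Dcxr, Mcam and Dusp10. At an unadjusted p under 0.05 there were 1525 genes (13.5% of those tested), 690 higher and 835 lower, and the median over all genes was -0.01. The sign of each of the 9 differences was the same in all 24 other settings and left-out libraries. These settings reuse the libraries that selected the genes, so the kept signs are not independent support. The number of calls rested on single libraries: limma called 0 genes without ΔUNG ATRi replicate 1 or 2, or without ΔUNG_2 DMSO replicate 1 or 2 (1534, 1349, 1231 and 1226 genes at an unadjusted p under 0.05), and 30 genes without ΔUNG DMSO replicate 1. On the fragments themselves, limma-voom called 125 genes, 61 higher and 64 lower, which held all 9.

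The promoters of the 9 genes were searched on both strands for that element, spelled as GAAA, any 2 bases (NN) and GAAA, in windows of 250 bases before to 50 bases after the annotated start. The windows of Bst2, Slfn9 and Mdfi held a match, and they are shown because these genes differ in the form of their response, described below. Capitals mark the matches. The sequences are RefSeq's, of build GRCm38.p6, and all 3 are on the minus strand: Bst2 at chr8:71537423-71537722, Slfn9 at chr11:82991781-82992080 and Mdfi at chr17:47834642-47834941.
Bst2: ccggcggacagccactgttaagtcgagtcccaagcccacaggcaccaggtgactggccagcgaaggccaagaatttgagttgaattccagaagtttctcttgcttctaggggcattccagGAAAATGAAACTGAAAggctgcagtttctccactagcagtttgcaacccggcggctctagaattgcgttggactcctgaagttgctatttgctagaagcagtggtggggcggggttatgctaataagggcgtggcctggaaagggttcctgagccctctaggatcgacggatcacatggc
Slfn9: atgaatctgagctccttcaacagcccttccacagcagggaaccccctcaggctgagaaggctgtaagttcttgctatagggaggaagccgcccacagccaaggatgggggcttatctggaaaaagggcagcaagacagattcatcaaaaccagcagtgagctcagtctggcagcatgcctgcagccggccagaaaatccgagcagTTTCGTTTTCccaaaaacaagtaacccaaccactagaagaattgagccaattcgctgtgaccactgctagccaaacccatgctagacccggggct
Mdfi: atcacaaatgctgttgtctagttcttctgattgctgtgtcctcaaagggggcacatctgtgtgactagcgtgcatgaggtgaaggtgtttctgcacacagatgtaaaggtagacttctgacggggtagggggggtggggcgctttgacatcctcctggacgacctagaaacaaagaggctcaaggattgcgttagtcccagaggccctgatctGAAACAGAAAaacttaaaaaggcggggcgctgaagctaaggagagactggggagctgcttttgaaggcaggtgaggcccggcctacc

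The Bst2 window held 2 overlapping matches on the gene's strand, starting at bases 121 and 127 of the window. The Slfn9 match reads on the opposite strand, at base 206, and the Mdfi match is on the gene's strand, at base 214. A second annotated Mdfi window held none, nor did the windows of Rnf213, Hap1, Art3, Mcam, Dcxr and Dusp10. The only windows of Rnf213 (chr11:119389849-119390148) and Dusp10 (chr1:184034131-184034430) do not cover the start of the span as deposited. Bases around those deposited starts were not searched. The letters occur in 3.44% of all 32851 windows, in 3.59% of the 8353 tested genes with a window, and in 16 of 37 interferon-stimulated genes with a window (43.24%). A match only describes the letters and is not evidence of binding.

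In 3 of the 9 genes, the clones lay below the control under ATRi by more than under DMSO. Bst2 encodes tetherin, an interferon-induced membrane protein that holds budding virus particles on the cell surface. It lies on chromosome 8 (71534255 to 71537456, minus strand, coordinates as deposited). Bst2 had 40.7 and 37.0 FPKM in ΔUNG ATRi and 23.5 in ΔUNG_2 ATRi, against 31.1 and 22.6 in ΔUNG and 23.6 and 23.1 in ΔUNG_2 under DMSO. In the control, Bst2 had 196 and 214 FPKM under ATRi and 73.6 and 68.1 under DMSO. All clone libraries were below all control libraries, and the clone libraries under ATRi overlapped those under DMSO in ΔUNG_2 but not in ΔUNG. The response was 0.27 in the clones (limma adjusted p = 0.0453) and 1.52 in the control, a difference of -1.25 ± 0.16 (SE, log2, limma adjusted p = 0.0331). In linear units the mean increment was 6.06 FPKM in the clones and 134 in the control. The difference was -0.98 for ΔUNG (limma adjusted p = 0.0906) and -1.52 for ΔUNG_2 (limma adjusted p = 0.0372).

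Rnf213 encodes a very large ubiquitin ligase with an AAA ATPase core that is interferon-induced and takes part in defence against intracellular pathogens. It lies on chromosome 11 (119393100 to 119487418, plus strand). It had 8.60 and 9.11 FPKM in ΔUNG ATRi and 6.43 in ΔUNG_2 ATRi, against 6.73 and 5.9998 in ΔUNG and 5.90 and 6.17 in ΔUNG_2 under DMSO. In the control, Rnf213 had 33.5 and 30.5 FPKM under ATRi and 14.1 and 12.9 under DMSO. ATRi libraries were above DMSO libraries in each line taken alone, by little in ΔUNG_2. The response was 0.27 in the clones (limma adjusted p = 0.0107) and 1.21 in the control, a difference of -0.95 ± 0.11 (SE, log2, limma adjusted p = 0.0232). The clones lay below the control by 2.01 under ATRi and by 1.06 under DMSO on the log2 scale.

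Slfn9 was of another form: it fell in the clones, and no fall passed the test in the control. It belongs to the Schlafen genes, of which a human relative, SLFN11, is known to act on stalled replication forks. It lies on chromosome 11 (82978390 to 82991830, minus strand). Slfn9 had 3.38 and 3.24 FPKM in ΔUNG ATRi and 2.52 in ΔUNG_2 ATRi, against 7.85 and 8.44 in ΔUNG and 7.85 and 8.19 in ΔUNG_2 under DMSO. In the control, Slfn9 had 9.56 and 8.14 FPKM under ATRi and 9.37 and 9.68 under DMSO. The clones' libraries under ATRi were the lowest 3 of all 11, and the control's overlapped between treatments. The response was -1.34 in the clones (limma adjusted p = 1.32e-06) and -0.10 in the control (limma adjusted p = 0.421), a difference of -1.23 ± 0.12 (SE, log2, limma adjusted p = 0.0201). Under DMSO the clones differed from the control by -0.23 (limma adjusted p = 0.107) and under ATRi by -1.46. Reads may be split between Slfn9 and near-identical relatives, so its level is uncertain. Slfn3 was the other Schlafen gene tested, with 4.80 and 4.82 FPKM in ΔUNG ATRi, 4.49 in ΔUNG_2 ATRi and 5.01 and 4.50 in control ATRi, and its response differed by -0.23 (limma adjusted p = 0.486).

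**Figure D2:**
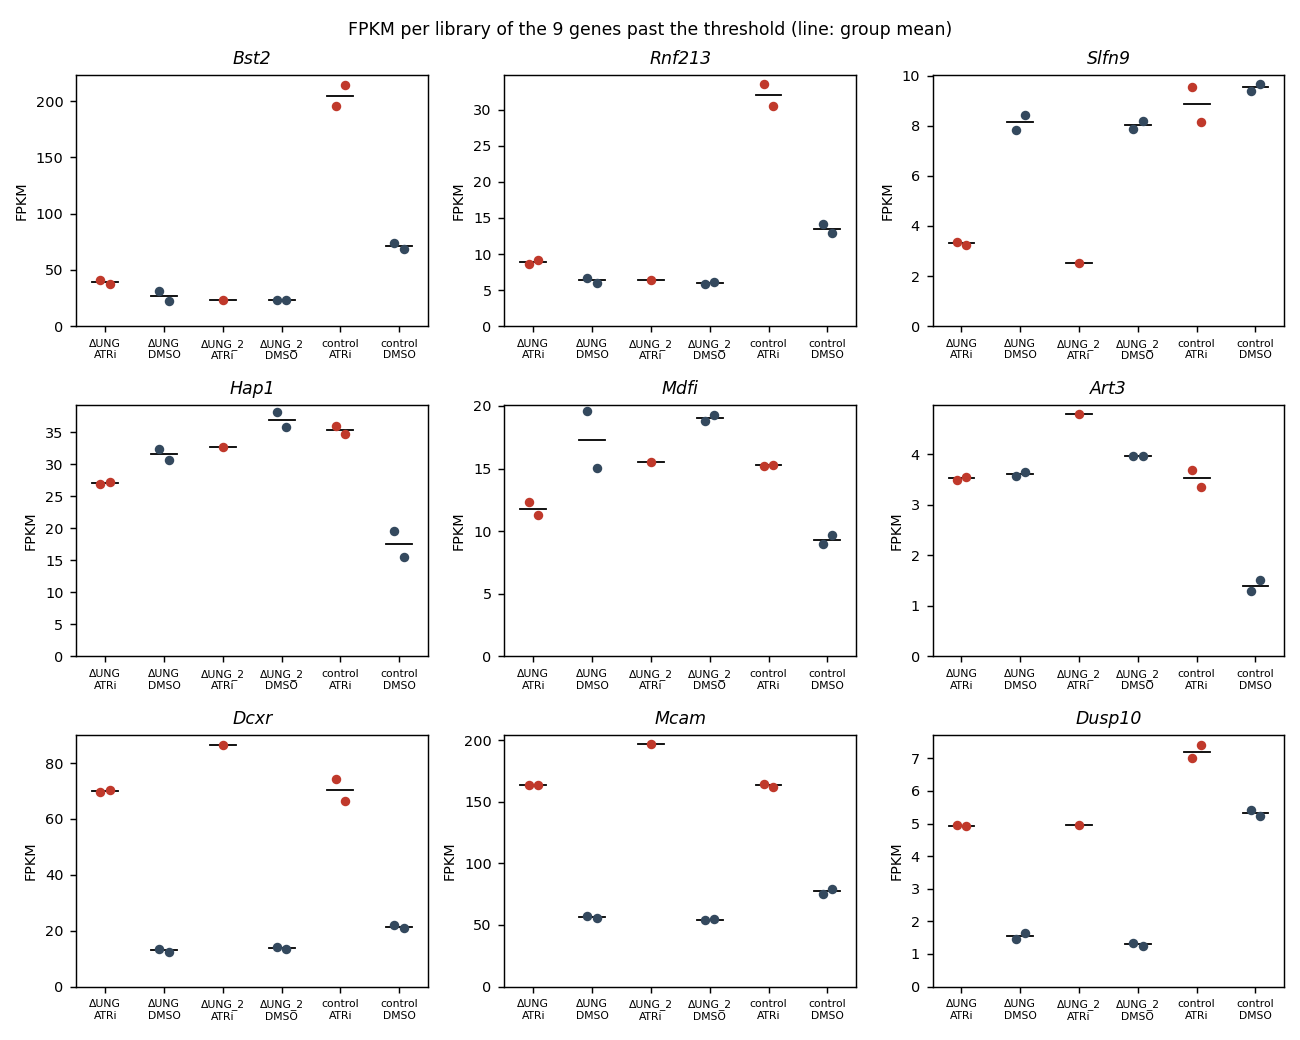
FPKM of the 9 genes whose ATRi responses differed, with a point for each library, a black line for the group mean, ATRi in red and DMSO in dark blue; axes start at 0. Bst2 and Rnf213 are high in the control ATRi group, Slfn9 is low in the clones' ATRi groups, and Hap1, Mdfi and Art3 are low in the control DMSO group.

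In Hap1, Mdfi and Art3, the clones lay above the control under DMSO, the control rose under ATRi, and the lines no longer differed past the threshold there. The DMSO difference and the difference in response share the DMSO libraries, so they are not independent of each other. Hap1 encodes huntingtin-associated protein 1, known for vesicle transport in neurons, and lies on chromosome 11 (100347327 to 100356128, minus strand). It had 26.9 and 27.3 FPKM in ΔUNG ATRi and 32.7 in ΔUNG_2 ATRi, against 32.4 and 30.8 in ΔUNG and 38.2 and 35.8 in ΔUNG_2 under DMSO. In the control, Hap1 had 36.0 and 34.7 FPKM under ATRi and 19.6 and 15.6 under DMSO. The control DMSO libraries were the lowest of all 11, and under ATRi the clone libraries all lay below the control libraries. The response was -0.19 in the clones (limma adjusted p = 0.0605) and 1.00 in the control, a difference of -1.19 ± 0.12 (SE, log2, limma adjusted p = 0.0203). Clones and control differed by -0.24 under ATRi (limma adjusted p = 0.149) and by 0.95 under DMSO (limma adjusted p = 0.000171). Hap1 was the only gene of the 9 past the threshold in each clone taken alone, with differences of -1.21 in ΔUNG (limma adjusted p = 0.0428) and -1.17 in ΔUNG_2 (limma adjusted p = 0.0372). The span of Hap1 overlaps that of Gm20394 on the same strand (mean of 1.24 FPKM), so part of its reads may belong there.

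Mdfi encodes I-mfa, an inhibitor that binds myogenic and related transcription factors, and lies on chromosome 17 (47815328 to 47834691, minus strand). It had 12.3 and 11.3 FPKM in ΔUNG ATRi and 15.6 in ΔUNG_2 ATRi, against 19.6 and 15.0 in ΔUNG and 18.8 and 19.3 in ΔUNG_2 under DMSO. In the control, Mdfi had 15.2 and 15.3 FPKM under ATRi and 8.97 and 9.68 under DMSO. Mdfi fell in the clones by 0.40 (limma adjusted p = 0.00422) and rose in the control by 0.68 (limma adjusted p = 0.00158), and of the 9 genes it was the only one among the 13 with opposite called responses. The difference was -1.09 ± 0.14 (SE, log2, limma adjusted p = 0.0331).

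Art3 encodes a member of the ADP-ribosyltransferase family and lies on chromosome 5 (92331827 to 92414628, plus strand). It had 3.50 and 3.56 FPKM in ΔUNG ATRi and 4.81 in ΔUNG_2 ATRi, against 3.58 and 3.65 in ΔUNG and 3.96 and 3.97 in ΔUNG_2 under DMSO. In the control, Art3 had 3.70 and 3.36 FPKM under ATRi and 1.29 and 1.51 under DMSO. The control DMSO libraries stood apart below all others. The response was 0.11 in the clones (limma adjusted p = 0.283) and 1.09 in the control, a difference of -0.98 ± 0.13 (SE, log2, limma adjusted p = 0.0331). The span of Art3 overlaps that of Cxcl10 on the opposite strand. Whether their exons overlap was not checked, and the sources used here do not say whether counting used strand. Some reads may therefore have been counted for the wrong gene, which was not tested. Cxcl10 itself, a chemokine that draws T cells, rose by 2.55 in the clones and by 2.72 in the control, a difference of -0.16 ± 0.18 (SE, log2, limma adjusted p = 0.765).

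In Dcxr and Mcam, the clones lay below the control under DMSO and rose more under ATRi, where the lines no longer differed past the threshold. Dcxr encodes dicarbonyl and L-xylulose reductase and is on the list of p53 targets; it lies on chromosome 11 (120725399 to 120727281, minus strand). It had 69.6 and 70.5 FPKM in ΔUNG ATRi and 86.4 in ΔUNG_2 ATRi, against 13.5 and 12.3 in ΔUNG and 13.99 and 13.5 in ΔUNG_2 under DMSO. In the control, Dcxr had 74.3 and 66.6 FPKM under ATRi and 22.1 and 20.8 under DMSO. Every line separated by treatment, and clones and control overlapped under ATRi but not under DMSO. The response was 2.50 in the clones and 1.69 in the control, a difference of 0.81 ± 0.10 (SE, log2, limma adjusted p = 0.0232).

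Mcam encodes an adhesion molecule (CD146) first described on human melanoma cells, and lies on chromosome 9 (44134469 to 44142727, plus strand). It had 164 and 163 FPKM in ΔUNG ATRi and 197 in ΔUNG_2 ATRi, against 57.5 and 55.7 in ΔUNG and 54.1 and 54.5 in ΔUNG_2 under DMSO. In the control, Mcam had 165 and 162 FPKM under ATRi and 75.2 and 79.2 under DMSO. The ΔUNG_2 ATRi library was the highest, and the other ATRi libraries lay within 162 to 165 FPKM. The response was 1.69 in the clones and 1.08 in the control, a difference of 0.61 ± 0.07 (SE, log2, limma adjusted p = 0.0232). An antisense gene, Gm10687, overlaps Mcam, so part of its reads may belong there.

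Dusp10 kept its place below the control in both treatments, but by less under ATRi. It encodes a phosphatase that switches off the stress kinases p38 and JNK, and lies on chromosome 1 (184013302 to 184075636, plus strand). It had 4.95 and 4.93 FPKM in ΔUNG ATRi and 4.95 in ΔUNG_2 ATRi, against 1.44 and 1.64 in ΔUNG and 1.32 and 1.26 in ΔUNG_2 under DMSO. In the control, Dusp10 had 6.9985 and 7.41 FPKM under ATRi and 5.40 and 5.24 under DMSO. No group overlapped another across line type or treatment. The response was 1.51 in the clones and 0.40 in the control, a difference of 1.11 ± 0.12 (SE, log2, limma adjusted p = 0.0209), and the clones lay below the control by 0.50 under ATRi and by 1.61 under DMSO. The linear increment was 3.53 FPKM in the clones and 1.88 in the control.

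**Figure D3:**
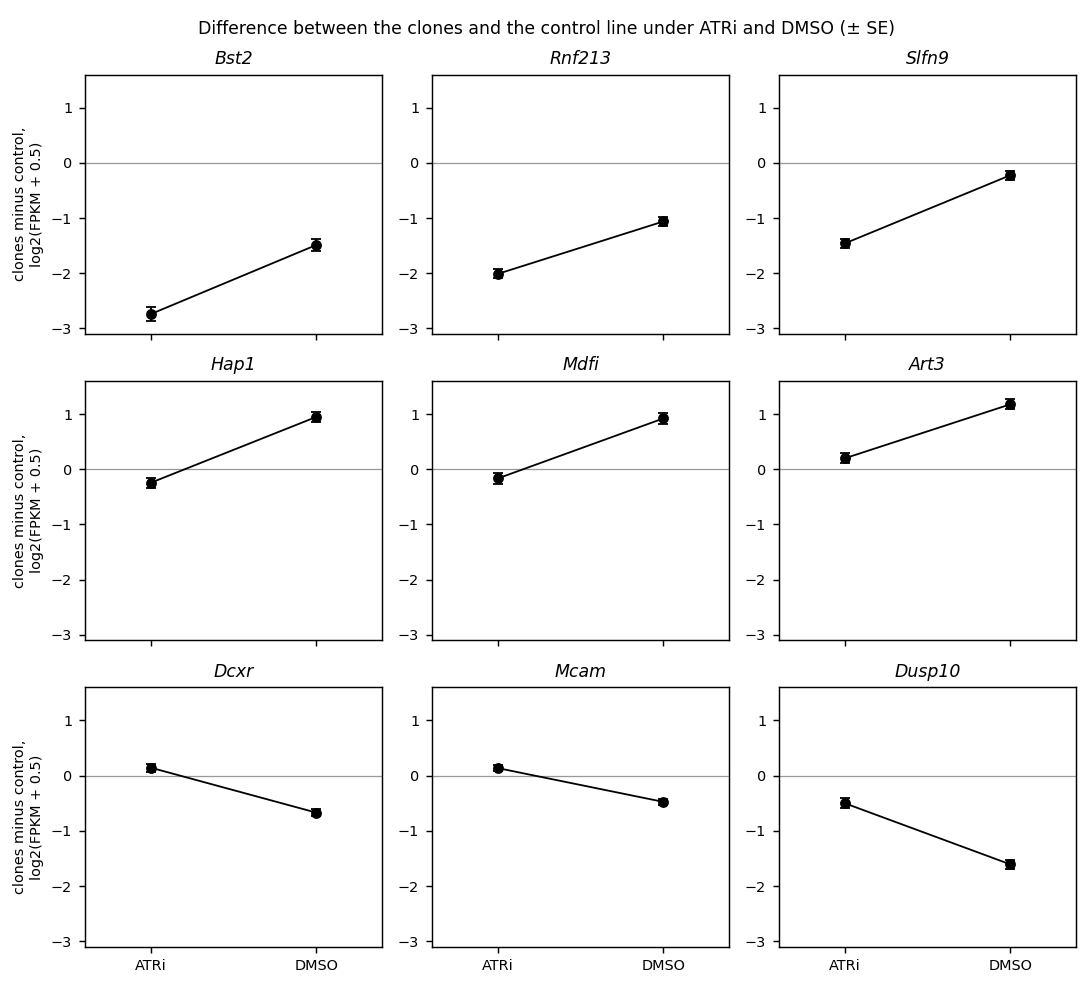
Difference between both clones averaged and the Cas9 control line (log2(FPKM + 0.5), with SE) under ATRi, left, and DMSO, right, for the 9 genes. For Bst2, Rnf213 and Slfn9 the ATRi point lies farther below 0 than the DMSO point, for Hap1, Mdfi, Art3, Dcxr and Mcam the ATRi point is nearer to 0, and for Dusp10 both lie below 0.

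Interferon-stimulated genes as a list had a lower median ATRi response in the clones than in the control, and Bst2 was the only member of 51 tested that passed the threshold singly. The median response was 0.61 in the clones and 1.20 in the control, and the median difference was -0.57, beside -0.01 over all genes. The difference was below 0 for 48 of 51 members, against 5811 of 11323 genes, and 35 were lower at an unadjusted p under 0.05 (7.37% of all genes were), with 0 higher. ATRi raised 35 members and lowered 2 in the clones, and raised 48 and lowered 0 in the control, against 23.8% and 16.8% of all genes raised. Under DMSO the clones already lay below the control, with a list median difference of -1.18 and 45 members called lower (588 of all 11323 genes were). Under ATRi that median was -1.86 and 49 were called lower (396 of all genes were). For those members the clones' levels started nearer to the pseudocount of 0.5, which understates changes of low genes. Limma-voom called the difference in response for 10 of the 51, all lower, beside 64 lower of all 11323 genes. The median difference in response was below 0 in all 24 other settings, between -0.71 and -0.49. Members may respond to a common signal, which was not measured, and they share the same 11 libraries, so these counts are not independent observations.

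Isg15 showed how the scale bears on the comparison. This gene, which encodes a ubiquitin-like protein, had 20.4 and 19.3 FPKM in ΔUNG ATRi and 17.9 in ΔUNG_2 ATRi, against 9.09 and 4.51 in ΔUNG and 6.45 and 5.27 in ΔUNG_2 under DMSO. In the control, Isg15 had 113 and 129 FPKM under ATRi and 31.1 and 25.8 under DMSO. Its increment was 12.6 FPKM in the clones and 92.5 in the control, but on the log2 scale it rose by 1.55 in the clones and 2.07 in the control, and the difference of -0.52 ± 0.31 (SE, log2, limma adjusted p = 0.519) did not pass the threshold. Ifit1, which binds viral RNA, rose by 1.62 in the clones and 2.02 in the control, a difference of -0.39 (limma adjusted p = 0.399). Its neighbour Ifit3 had 15.8 and 14.7 FPKM in ΔUNG ATRi, 13.5 in ΔUNG_2 ATRi and 3.27 to 5.84 in the clones' DMSO libraries, against 76.7 and 63.5 FPKM in control ATRi and 13.4 and 11.7 in control DMSO. The clones' response of 1.58 and the control's of 2.43 differed by -0.85 ± 0.15 (SE, log2, limma adjusted p = 0.0745).

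Some regulators and antiviral effectors of the interferon list had larger log2 differences that also missed the threshold. Cmpk2, a mitochondrial nucleotide kinase, had 2.19 and 1.98 FPKM in ΔUNG ATRi, 2.01 in ΔUNG_2 ATRi and 2.24 to 3.79 in the clones' DMSO libraries, against 11.3 and 9.49 in control ATRi and 4.79 and 3.51 in control DMSO. The response was -0.36 in the clones and 1.24 in the control, a difference of -1.60 ± 0.28 (SE, log2, limma adjusted p = 0.0724). Parp12, an antiviral mono-ADP-ribosyltransferase, had 6.89 and 6.64 FPKM in ΔUNG ATRi, 5.34 in ΔUNG_2 ATRi and 4.91 to 6.99 in the clones' DMSO libraries, against 34.4 and 33.4 in control ATRi and 16.3 and 15.0 in control DMSO. Clone libraries of both treatments overlapped for Parp12, and its difference was -1.002 ± 0.17 (SE, log2, limma adjusted p = 0.0641). Stat2, the interferon signal transducer, rose by 0.56 in the clones and 1.45 in the control, a difference of -0.90 (limma adjusted p = 0.0655). Irf7, which amplifies interferon production, had 0.458 to 0.611 FPKM in the clones' ATRi libraries and 0.0907 to 0.328 in their DMSO libraries, against 2.93 and 2.999 in control ATRi and 0.781 and 0.634 in control DMSO. It rose by 0.61 in the clones and 1.52 in the control, a difference of -0.91 (limma adjusted p = 0.158), but the clones' levels were near or under the pseudocount of 0.5, and the difference was -0.69 with a pseudocount of 0.1 and -0.38 by limma-voom. Cmpk2, Parp12 and Stat2 are named after their values were seen.

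Other inflammatory genes lay nearer to 0. Ccl5, a chemokine, rose by 1.97 in the clones and 1.77 in the control, a difference of 0.20 ± 0.19 (SE, log2, limma adjusted p = 0.714), although its increment was 22.7 FPKM in the clones and 36.6 in the control. The sign turned in ΔUNG alone, which is also the value without the ΔUNG_2 ATRi library (-0.0473). Over 15 cytokine, chemokine and NF-kB genes tested, the median difference was 0.12, and limma and limma-voom each called 0. At an unadjusted p under 0.05, 4 were higher and 0 lower, beside 6.09% and 7.37% of all genes. The DNA sensors Mb21d1 (cGAS) and Tmem173 (STING) differed by -0.34 (limma adjusted p = 0.321) and -0.09 (limma adjusted p = 0.775). The interferon receptor subunit Ifnar1 differed by 0.03 ± 0.08 (SE, log2, limma adjusted p = 0.918).

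Lists of antigen presentation, interferon-gamma response and immune recognition also had medians below 0. B2m, the light chain of class I molecules, rose by 0.32 in the clones and 0.77 in the control, a difference of -0.45 (limma adjusted p = 0.158). H2-K1, a class I heavy chain, had 12.7 and 11.7 FPKM in ΔUNG ATRi and 10.8 in ΔUNG_2 ATRi, against 16.3 and 9.98 in ΔUNG and 10.9 and 10.5 in ΔUNG_2 under DMSO. In the control, H2-K1 had 25.7 and 24.4 FPKM under ATRi and 8.54 and 12.4 under DMSO. Clone libraries overlapped between treatments and control libraries did not, and the difference was -1.26 ± 0.27 (SE, log2, limma adjusted p = 0.107). Reads of H2-K1 may be split with near-identical class I genes. Over 17 MHC class I genes tested, the median difference was -0.27, with 5 lower and 0 higher at an unadjusted p under 0.05. The 9 interferon-gamma-induced GTPases and regulators tested all lay below 0, beside 5811 of all 11323 genes. Their median was -0.70, and 7 of them were lower at an unadjusted p under 0.05. Over 10 immune checkpoint and NK cell ligand genes tested, the median was -0.43 and 5 were lower at that p. Over all genes, 7.37% were lower and 6.09% higher at that p. Limma called 0 members of these 3 lists, and limma-voom called 2 class I genes (B2m and H2-K1), 1 GTPase (Irgm1) and 0 ligands, all lower. Of all 11323 genes, limma-voom called 64 lower and 61 higher.

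p53 targets as a list had a higher median ATRi response in the clones than in the control. The median response of the 37 tested was 1.05 in the clones and 0.75 in the control. The median difference was 0.25, and 32 of the 37 lay above 0, beside 5512 of all 11323 genes. Dcxr was called, 17 were higher at an unadjusted p under 0.05 and 0 were lower, beside 6.09% of all genes higher. ATRi raised 32 members in the clones and 29 in the control, against 23.8% and 16.8% of all genes raised. The median stayed above 0 in all 24 other settings, between 0.17 and 0.33, the lowest for ΔUNG alone and the highest for ΔUNG_2 alone. Cdkn1a, the cell cycle inhibitor p21, had 202 and 204 FPKM in ΔUNG ATRi, 242 in ΔUNG_2 ATRi and 49.7 to 58.7 in the clones' DMSO libraries, against 193 and 187 in control ATRi and 60.9 and 55.6 in control DMSO. Its difference was 0.35 ± 0.10 (SE, log2, limma adjusted p = 0.192). Mdm2, the ubiquitin ligase that degrades p53, differed by 0.46 (limma adjusted p = 0.121) and the antiproliferative gene Btg2 by 0.65 (limma adjusted p = 0.15). For Mdm2 and Btg2 the clones lay below the control under DMSO, by 0.41 (limma adjusted p = 0.00695) and 0.46 (limma adjusted p = 0.0309), and not past the threshold under ATRi. Over the list, the median difference between clones and control was -0.09 under DMSO, with 5 called lower and 1 higher. Under ATRi it was 0.18, with 0 called lower and 5 higher. Of all 11323 genes, 588 were called lower and 818 higher under DMSO, and 396 and 483 under ATRi.

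**Figure D4:**
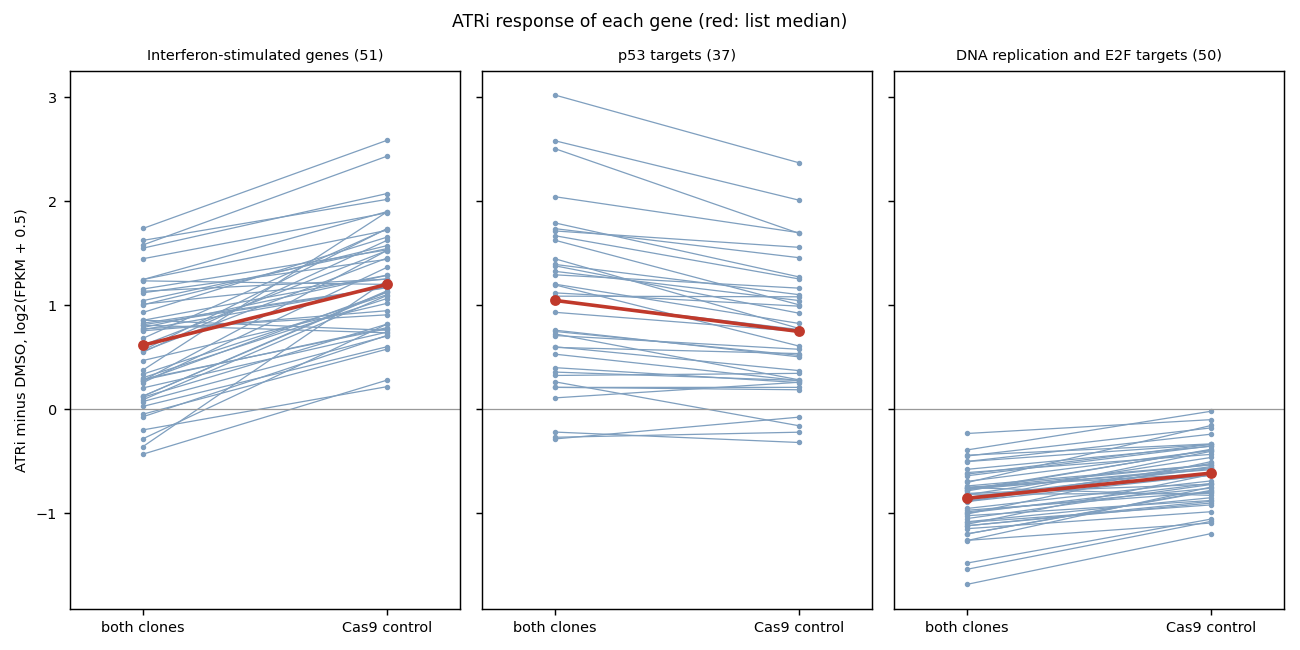
ATRi response (ATRi minus DMSO, log2(FPKM + 0.5)) of each tested gene of 3 lists, in both clones averaged, left, and in the Cas9 control line, right, with the list median in red. Interferon-stimulated genes have a median of 0.61 in the clones and 1.20 in the control, p53 targets 1.05 in the clones and 0.75 in the control, and DNA replication and E2F targets -0.86 in the clones and -0.61 in the control.

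Proliferation genes were mostly lowered by ATRi in both line types, with lower median responses in the clones. Of 50 DNA replication and E2F genes tested, ATRi lowered 49 in the clones and 43 in the control, against 25.5% and 16.8% of all genes lowered. Median responses were -0.86 in the clones and -0.61 in the control. The difference was below 0 for 49 of 50, beside 5811 of all 11323 genes, with a list median of -0.26. At an unadjusted p under 0.05, 24 were lower and 0 higher, beside 7.37% and 6.09% of all genes. Tk1, thymidine kinase, had 10.7 and 9.25 FPKM in ΔUNG ATRi and 10.7 in ΔUNG_2 ATRi, against 23.8 and 25.6 in ΔUNG and 26.6 and 25.8 in ΔUNG_2 under DMSO. In the control, Tk1 had 12.9 and 14.7 FPKM under ATRi and 23.2 and 23.8 under DMSO. ATRi libraries were below DMSO libraries in every line, and its difference was -0.51 ± 0.11 (SE, log2, limma adjusted p = 0.114).

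Of 54 G2 and mitosis genes tested, the difference was below 0 for 52, with a median of -0.21, and 17 were lower at an unadjusted p under 0.05. Of 50 ATR-CHK1 and DNA damage response genes, 42 were below 0, with a median of -0.22 and 15 lower at that p. Over all genes, 7.37% were lower at that p, and 5811 of 11323 lay below 0. Exo1, an exonuclease of mismatch repair and recombination, had the lowest value of that list: it had 2.52 and 2.20 FPKM in ΔUNG ATRi and 2.996 in ΔUNG_2 ATRi, against 6.58 and 7.25 in ΔUNG and 6.44 and 6.65 in ΔUNG_2 under DMSO. In the control, Exo1 had 3.86 and 3.89 FPKM under ATRi and 5.66 and 5.64 under DMSO. Exo1 fell by 1.19 in the clones and by 0.49 in the control, a difference of -0.70 ± 0.12 (SE, log2, limma adjusted p = 0.0641). Limma called 0 members of the replication, mitosis and damage response lists, and limma-voom called 2, 0 and 2. These were all lower, beside 64 lower of all 11323 genes by limma-voom. Tk1 and Exo1 are named after their values were seen.

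A list of base excision repair, mismatch repair and dUTP genes takes in the repair that UNG starts. It had a median difference of -0.08 over 32 tested, with 6 lower and 0 higher at an unadjusted p under 0.05. Histone genes had a median of 0.17 over 21 tested, with 1 higher and 1 lower. Over all genes, 7.37% were lower and 6.09% higher at that p.

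Metabolic and stress lists had medians on both sides of 0. Cholesterol and fatty acid synthesis genes rose by a median of 0.31 in the clones and 0.55 in the control. Their differences had a median of -0.19 over 35 tested, with 12 lower and 1 higher at an unadjusted p under 0.05. Over all genes, 7.37% were lower and 6.09% higher at that p. Insig1, which holds back sterol synthesis, had 61.9 and 62.9 FPKM in ΔUNG ATRi, 55.5 in ΔUNG_2 ATRi and 28.7 to 35.7 in the clones' DMSO libraries, against 69.5 and 62.7 in control ATRi and 26.2 and 25.5 in control DMSO. Its difference was -0.45 ± 0.08 (SE, log2, limma adjusted p = 0.0806). Glycolysis and hypoxia genes had a median difference of -0.28 over 35 tested, with 12 lower and 2 higher. Their range was the widest, and Gapdh, at 2.43 ± 1.15 (SE, log2, limma adjusted p = 0.406), varied within groups, with 83.5 and 6.46 FPKM in ΔUNG_2 DMSO replicates.

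Integrated stress response genes, which serve amino acid supply, fell under ATRi by a median of 0.74 in the clones and 0.85 in the control. Their differences had a median of 0.17 over 37 tested, with 11 higher and 1 lower at an unadjusted p under 0.05. Over all genes, 6.09% were higher and 7.37% lower at that p. Nupr1, a stress-induced chromatin protein, had 4.41 and 4.08 FPKM in ΔUNG ATRi, 4.69 in ΔUNG_2 ATRi and 34.0 to 39.9 in the clones' DMSO libraries, against 4.92 and 5.35 in control ATRi and 35.6 and 31.1 in control DMSO. Its difference was -0.30 ± 0.12 (SE, log2, limma adjusted p = 0.342), the lowest of the list. Of the 37 tested, 30 lay above 0, beside 5512 of all 11323 genes. Unfolded protein response chaperones had a median difference of 0.07 over 23 tested, and Hspa5, their main chaperone, one of -0.11 (limma adjusted p = 0.711). NRF2 antioxidant targets had a median of -0.01 over 25 tested, with 5 higher and 0 lower.

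Immediate early and ERK feedback genes, the list that holds Dusp10, had a median difference of 0.08 over 39 tested. At an unadjusted p under 0.05, 8 were higher and 5 lower, beside 6.09% and 7.37% of all genes. Egr1, an immediate early transcription factor, differed by 0.67 ± 0.25 (SE, log2, limma adjusted p = 0.295), and the cytokine Lif by 0.58 (limma adjusted p = 0.298). Pigmentation genes had a median of 0.02 over 32 tested, with 3 higher and 2 lower at an unadjusted p under 0.05. For lysosomal genes it was 0.07 over 48, with 10 higher and 0 lower at that p. For matrix and integrin genes it was 0.12 over 38, with 5 higher and 1 lower. BCL2 family and death receptor genes had a median of -0.06 over 25, but 6 were higher and 1 lower at that p. For cytosolic ribosomal proteins it was -0.10 over 76, with 0 higher and 7 lower. For nuclear-encoded respiratory chain subunits it was -0.02 over 52, with 1 higher and 5 lower. For DNA sensing and JAK-STAT genes it was -0.11 over 26, with 1 higher and 7 lower.

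**Figure D5:**
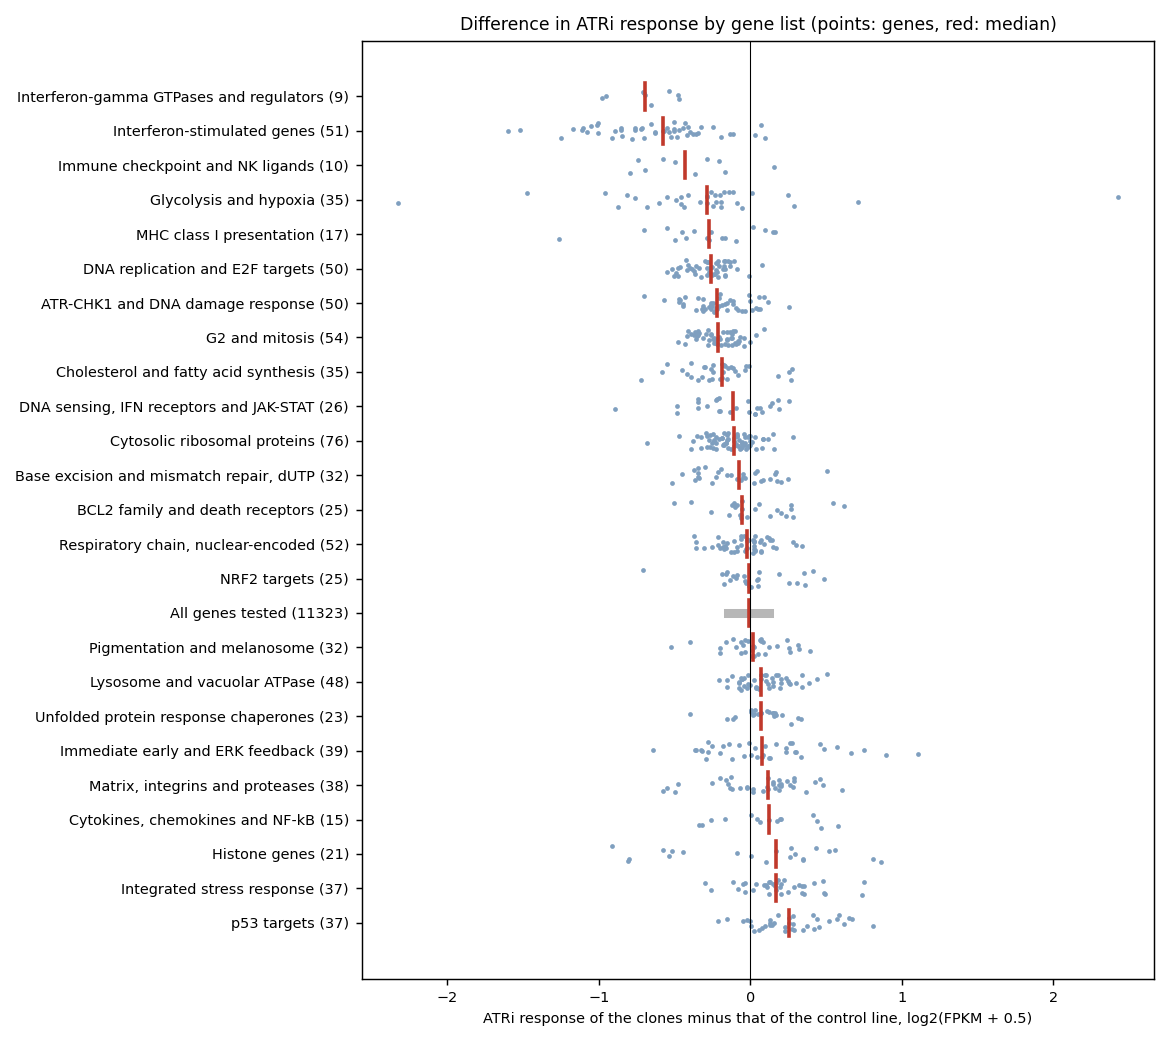
Difference in ATRi response, clones minus control (log2(FPKM + 0.5)), of each tested gene in 24 lists, with the number tested in parentheses and the median in red; the grey bar shows the interquartile range of all 11323 genes. The interferon-gamma GTPases (-0.70) and interferon-stimulated genes (-0.57) have the lowest medians and p53 targets (0.25) the highest.

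Cyba and Mbp were far higher in the clones than in the control under both treatments. Cyba, a subunit of the NADPH oxidase, had 7.0012 to 8.73 FPKM in the clones under ATRi, against 0.0338 and 0.0352 in control ATRi, and 7.41 to 8.95 in the clones under DMSO, against 0.158 and 0 in control DMSO. Its response differed by 0.03 ± 0.17 (SE, log2, limma adjusted p = 0.957), a value that carries no information on the control, whose levels lay near the limit of detection and far under the pseudocount. Mbp, myelin basic protein, had 28.0 and 24.1 FPKM in ΔUNG ATRi, 48.9 in ΔUNG_2 ATRi and 47.6 to 70.7 in the clones' DMSO libraries, against 1.74 and 2.20 in control ATRi and 5.43 and 5.27 in control DMSO. Mbp fell by 0.71 in the clones and by 1.25 in the control, a difference of 0.54 ± 0.13 (SE, log2, limma adjusted p = 0.122); limma-voom called it, at 0.74 ± 0.15 (SE, log2, adjusted p = 0.0162).

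The clones were also set against each other. The ATRi response of ΔUNG_2 minus that of ΔUNG passed the threshold for 0 genes by limma and 0 by limma-voom, with 1314 at an unadjusted p under 0.05 (11.6% of those tested). Taken alone against the control, ΔUNG had 2 genes past the threshold (0.0177%), 0 higher and 2 lower, and ΔUNG_2 had 8 (0.0707%), 4 higher and 4 lower. The list medians of the clones lay close together for interferon-stimulated genes (-0.58 in ΔUNG_2 and -0.58 in ΔUNG) and farther apart for p53 targets (0.33 in ΔUNG_2 and 0.17 in ΔUNG) and for DNA replication genes (-0.19 in ΔUNG_2 and -0.34 in ΔUNG). Both clones were set against the same control libraries, and with 1 ΔUNG_2 ATRi library these gaps were not tested.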

How the data were processed

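RNA of 11 B16F10 libraries was sequenced by Novogene, per the labels' protocols. The authors deposited FPKM per gene and library, and a table of read counts with the percent of bases at Q30 (92.4% to 94.0%) and of G and C (49.5% to 51.0%). HISAT2 was used, per the submitters' processing notes. The counting tool, annotation, genome build and HISAT2 version were not given in the sources used here. Groups came from the sample titles. In the read table, 1 row matches no sample here and was not used. FPKM times gene length gave whole fragments for 100% of values, within a tolerance of 0.01. A count of 0 allows 3 fragments, or 0.105 to 0.176 FPKM for a gene of 1 kb, for counting error only.

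From these, limma 3.58.1 (R 4.3.3) was fitted to log2(FPKM + 0.5) for 11323 genes, with 1 mean per group, 5 residual degrees of freedom, empirical Bayes moderation and a trend of variance with intensity. Each test was two-sided, with Benjamini-Hochberg adjustment over all genes and a threshold of 0.05. The log2 scale with its pseudocount understates changes of low genes. The tested value is the ATRi response averaged over both clones minus that of the control. Errors are SE. The procedure was tested on simulated data. Lists are described by counts and medians over tested members.

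The rule for named genes took in Ung, 21 further preselected genes, called list members, and called genes with opposite responses. It also took the largest differences past the threshold among genes of at least 200 bases with a mean of at least 1 FPKM. Genes outside this rule were named after their values were seen: Cmpk2, Parp12, Stat2, Tk1, Exo1, Gapdh, Slfn3 and the genes just short of the threshold. Some genes are not reported here. The members, lists and rule were chosen with earlier results of these data known. Other settings were a filter at 2 FPKM or none, pseudocounts of 0.1 and 1, libraries scaled to an equal FPKM sum or with median ratios, no intensity trend, a replicate block, each clone alone, limma-voom on fragments and leaving out each library. Thinning to 17014697 fragments and leaving out genes of under 200 bases were chosen after seeing the data.

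Of the gene IDs, 14503 matched GENCODE M21 (GRCm38), and 14012 had identical coordinates there. It was used to repair 19 symbols and to find genes with overlapping spans, without comparing exons. Promoter windows are RefSeq's. Plots used matplotlib 3.10.9 and Python 3.11.15.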

Additional observations from a re-analysis of the deposited data

Results flagged for a closer look

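For 9 genes the ATRi response of the clones differed from that of the control line by limma's test of the difference itself (adjusted p under 0.05 over all genes tested). The clones' response was lower on the log2(FPKM + 0.5) scale for Bst2 (-1.25), Slfn9 (-1.23), Hap1 (-1.19), Mdfi (-1.09), Art3 (-0.977) and Rnf213 (-0.948). It was higher for Dusp10 (1.11), Dcxr (0.814) and Mcam (0.611). The direction was the same in ΔUNG and in ΔUNG_2 for each of the 9. The genes were selected on the mean of these clones' differences, and both clones share the control libraries, so this is not independent support. There are 5 residual degrees of freedom behind every value.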

How the results depend on the processing

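The 9 differences kept their sign in all 24 other settings, which reuse the libraries that selected them. Each was past the threshold in 10 (Art3) to 19 (Slfn9 and Hap1) of these settings. In place of 9 genes (3 higher, 6 lower), 35 (9 and 26) were called with a pseudocount of 1, 30 (9 and 21) with a filter at 2 FPKM, 17 (6 and 11) at the same FPKM sum, 4 (1 and 3) without the intensity trend, 2 (0 and 2) in ΔUNG alone and 125 (61 and 64) by limma-voom. In alternatives chosen after seeing the data, 16 (7 and 9) were called after thinning and 21 (7 and 14) among genes of at least 200 bases. The same FPKM sum also gave 5 genes for the difference between the clones. One RNA, Gm23935, made up 10.3% to 26.3% of the FPKM sum of a library, so its variation enters every gene in that setting. The replicate block gave 12 genes (4 higher, 8 lower) and 2 interferon-stimulated genes. Its numbers did not pair the samples: over 10 pairs of groups the correlations of same-numbered libraries were -0.124 to 0.0436.

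Called interferon-stimulated genes numbered 9 with a pseudocount of 1, 4 at 2 FPKM, 2 at the same FPKM sum, 0 in ΔUNG alone, 10 by limma-voom and 2 among genes of at least 200 bases. Called p53 targets numbered 2 with a pseudocount of 1 and at 2 FPKM, 0 at the same FPKM sum, without the trend and in ΔUNG alone, and 3 by limma-voom. Called immediate early genes numbered 0 in ΔUNG alone and 3 by limma-voom. Without a filter the median was -0.478 for interferon-gamma GTPases and -0.315 for checkpoint and NK ligands. In ΔUNG alone it was 0.173 for p53 targets and 0.0348 for lysosomal genes, and in ΔUNG_2 alone 0.333 and 0.118, with 0.0778 for NRF2 targets.

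Leaving out each library in turn gave 0 to 30 genes (0 to 18 higher, 0 to 12 lower), 0 to 3 interferon-stimulated genes, 0 to 2 p53 targets, 0 to 2 immediate early genes and 0 to 1 genes between the clones. The count was 3 without ΔUNG_2 ATRi, 20 without control ATRi replicate 2, and 6 without either control DMSO library. List medians then ranged from -0.705 to -0.487 for interferon-stimulated genes, 0.175 to 0.294 for p53 targets, -0.576 to -0.382 for checkpoint ligands, -0.421 to -0.0947 for glycolysis, -0.264 to -0.144 for cholesterol synthesis, -0.242 to -0.0129 for ribosomal proteins, -0.191 to -0.0102 for DNA sensing and JAK-STAT, 0.0348 to 0.112 for lysosomal genes and 0.0337 to 0.155 for chaperones. They crossed 0 for respiratory chain (-0.143 to 0.0633), NRF2 (-0.0325 to 0.0775), pigmentation (-0.02 to 0.0761), histone (-0.0129 to 0.318), immediate early (-0.0296 to 0.132) and BCL2 family genes (-0.0416 to 0.0259).

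Cyba reversed with a pseudocount of 1 (-0.00595) and in ΔUNG_2 alone (-0.0257), and Ccl5 in ΔUNG alone (-0.0473). With each library left out in turn, these genes and Cxcl10 and Ifnar1 crossed 0: Cyba from -0.163 without control DMSO replicate 1 to 0.233, Ccl5 from -0.0473 without ΔUNG_2 ATRi to 0.327, Cxcl10 from -0.404 to 0.0759 without control DMSO replicate 2, and Ifnar1 from -0.00599 without the same library to 0.0681. The causes were not tested. With 5 residual degrees of freedom, a gene that missed the threshold may still differ.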

Other observations

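Just short of the threshold, 15 genes had a limma adjusted p between 0.0515 and 0.0577. Car9, a carbonic anhydrase induced by low oxygen, had 2.08 and 1.88 FPKM in ΔUNG ATRi and 1.00 in ΔUNG_2 ATRi, against 17.6 and 12.1 in ΔUNG and 10.3 and 8.39 in ΔUNG_2 under DMSO. In the control, Car9 had 1.71 and 2.17 FPKM under ATRi and 1.75 and 3.64 under DMSO, and the difference in response was -2.33 ± 0.34 (SE, log2, limma adjusted p = 0.0515). Crabp2, a retinoic acid carrier, had 2.36 and 2.93 FPKM in ΔUNG ATRi, 1.86 in ΔUNG_2 ATRi and 4.92 to 9.25 in the clones' DMSO libraries, against 2.47 and 1.96 in control ATRi and 2.27 and 2.26 in control DMSO. Its difference was -1.39 ± 0.20 (SE, log2, limma adjusted p = 0.0515). Fbln5, a protein of elastic fibres, fell by 0.28 in the clones and by 1.13 in the control, a difference of 0.84 ± 0.12 (SE, log2, limma adjusted p = 0.0515).

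Interferon-induced genes in this range were Irgm1 (a GTPase, -0.98), Dhx58 (an RNA sensor, -1.17) and Usp18 (which removes ISG15, -1.08). Usp18 had 2.31 and 2.22 FPKM in ΔUNG ATRi, 1.51 in ΔUNG_2 ATRi and 0.874 to 1.33 in the clones' DMSO libraries, against 23.6 and 18.5 in control ATRi and 6.85 and 6.10 in control DMSO. Mvd, an enzyme of sterol synthesis (-0.72), was also in this range.

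Among the 13 genes with opposite called responses, Zfp703, a transcriptional repressor, rose by 0.54 in the clones and fell by 0.31 in the control, with a difference of 0.86 ± 0.13 (SE, log2, limma adjusted p = 0.053). Cdhr4, a cadherin-related gene, fell by 0.55 in the clones and rose by 0.30 in the control, with a difference of -0.85 ± 0.13 (SE, log2, limma adjusted p = 0.053). Of the 9 called genes, 4 lie on chromosome 11 (Rnf213, Slfn9, Hap1 and Dcxr), which holds 8.33% of the genes tested; this share was not tested.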
